A study of Mus musculus with 8 samples.

Results

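The nuclear-encoded mRNAs of respiratory complexes II to V were followed read by read in P19 cells, a mouse embryonal carcinoma line, by nanopore direct RNA sequencing. Members were chosen by gene name: the Cox4 to Cox8, Uqcr and Atp5 genes, Sdha to Sdhd, Cyc1 and Cycs. They came to 46 of the 13104 genes with kept mRNA reads and to 48935 of 1891458 kept reads. Of these genes, 42 had at least 30 reads. The wild-type cells were undifferentiated and received either MHY1485 (MHY), a small molecule used to activate the kinase mTOR, at 10 µM or an equal amount of its solvent DMSO. Exposure lasted 24 h or 48 h, with medium and compound renewed daily in the longer treatment. The 4 groups (DMSO 24 h, MHY 24 h, DMSO 48 h and MHY 48 h) held 2 replicates each, biological replicates per the study's methods. Libraries are named by the numbers of the deposited table, 21 and 23 at 24 h and 24 and 25 at 48 h, which are names and not hours.

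Complexes II to V are the complexes of oxidative phosphorylation other than NADH dehydrogenase (complex I). Complex II (succinate dehydrogenase) passes electrons from succinate of the citric acid cycle to ubiquinone, in parallel with complex I, complex III passes electrons from ubiquinol to cytochrome c, complex IV (cytochrome c oxidase) passes them to oxygen, and complex V (ATP synthase) uses the proton gradient to make ATP. Complex II is wholly nuclear encoded, while the catalytic core of complex IV, cytochrome b of complex III and a pair of complex V subunits are made inside the mitochondrion from mitochondrial DNA. The nuclear mRNAs are transcribed and polyadenylated in the nucleus and translated in the cytosol, and their proteins are imported. A poly(A) tail bound by poly(A)-binding protein favours translation and protects an mRNA from decay, and tails shorten as an mRNA ages. mTOR promotes the translation of mRNAs that begin with a terminal oligopyrimidine (TOP) tract, most of which encode ribosomal proteins and translation factors.

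Annotated start sites were inspected because of this link between mTOR and the first bases of an mRNA. RefSeq start windows (build GRCm38.p6) were matched for 33 of the 42 members. A C at the start with at least 5 pyrimidines in a row from that C was found in 3 of the 33 (9.09%), against 13 of 61 ribosomal protein genes (21.3%) and 3.24% of all genes with at least 30 reads. None of the 8 matched complex IV genes had such a start. The first 20 bases of the 3 transcripts, with the pyrimidine run in capitals, were as follows.
Atp5g2, chr15:102671028-102671047, minus strand: CCCTCTCTgtcttctctgcc
Uqcrfs1, chr13:30545297-30545316, minus strand: CTCTTCgggccgtcgttcga
Atp5d (the second of its windows), chr10:80142315-80142334, plus strand: CCTTCggagaatcctgtgcg
The most-read member, Atp5b, and the most-read complex IV member, Cox7c, are shown beside them as annotated starts that did not meet this rule. In Cox7c the first base, an A, was followed directly by an unbroken run of pyrimidines.
Atp5b, chr10:128083307-128083326, plus strand: gtctccacccggattccgcc
Cox7c, chr13:86046776-86046795, minus strand: atcttccctttcggtcttcg
An annotated start need not be the start used in these cells.

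The windows, which ran from 250 bases before to 50 bases after the start, were also searched on both strands for the letters of 2 motifs known from nuclear genes of the respiratory chain. The NRF1 motif bound by nuclear respiratory factor 1 occurred in 10 of 33 members (30.3%), in 14.4% of genes with at least 30 reads and in 5.19% of all genes of the table. The ETS motif (CCGGAAG), the core recognised by the GABP family, occurred in 13 of 33 members (39.4%), in 26.2% of genes with at least 30 reads and in 9.93% of all genes. The corresponding NRF1 and ETS shares were 20.6% and 11.8% among 34 complex I genes and 9.84% and 41.0% among 61 ribosomal protein genes, so the ETS motif was about as frequent in ribosomal protein genes as in the members. Cox6a1 held both motifs, Sdha held the NRF1 motif at several places and Cox8a the ETS motif at more than one. Single matches, in the direction of the gene and with the motif or its reverse complement in capitals, illustrate them.
Cox6a1, NRF1, chr5:115349105-115349126, minus strand: aacgggGCGCATGCGCgctctc
Cox6a1, ETS, chr5:115348962-115348980, minus strand: tttccgCTTCCGGcgcgcc
Sdha, NRF1, chr13:74350280-74350301, minus strand: cgtgttGCGCAGGCGCagaatc
Cox8a, ETS, chr19:7217609-7217627, minus strand: gaaataCTTCCGGctcggg
Uqcrc1, NRF1, chr9:108936672-108936693, plus strand: cgctctGCGCATGCGCagcgcg
These are matches of letters and not measured binding sites.

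The libraries held 175130 to 310979 kept mRNA reads each, of which 4570 to 7993 were member reads. The deposited reads are split by a column headed sample, with 3 values at 24 h and 2 at 48 h. These values are called runs here, although no label says what they stand for. The study's methods describe 2 independent libraries per time point. Each run held the 4 libraries of a single time point, so time cannot be told apart from run. The median translocation rate, from which tails are computed, was 120.48 nt per second in the 24 h libraries and 115.85 in the 48 h libraries. Markers of embryonal carcinoma cells were present, with 5098 reads of Pou5f1 and 278 of Sox2, although Zfp42 was at 0. Summed neuron markers ranged from 24.2 to 41.7 reads per 100000 kept reads, endoderm markers reached at most 0.654, fibroblast markers 2.26 and mesoderm and muscle markers 24.4, mainly T (166 reads). Of the marker genes, Tdgf1 and T were called lower in read count with MHY at 48 h, as were 1.22% of all 4108 genes tested. The summed mesoderm and muscle markers nevertheless overlapped there, at 3.60 to 19.5 in MHY and 9.05 to 24.4 in DMSO. The summed neuron markers were also lower there, at 24.2 to 29.4 in MHY against 31.2 to 34.3 in DMSO. The part of these markers in the results was not tested. In these bulk libraries, a lower share of cells that express a gene cannot be told apart from less of its RNA per cell.

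In direct RNA sequencing each read is 1 mRNA molecule, so read levels are given per 100000 kept mRNA reads and are not divided by transcript length. Complex V contributed the most member reads, 23826 from 17 genes (48.7%), followed by complex IV with 14698 from 10 genes (30.04%), complex III with 7178 from 9 genes (14.7%) and complex II with 1586 from 4 genes (3.24%). Cycs, the soluble electron carrier cytochrome c, had 985 reads. Cox7a2l, a factor of respiratory supercomplexes that the name rule also takes in, had 635. The 10 most-read members held 39.7% of the member reads. They were Atp5b, the catalytic beta subunit of ATP synthase (3367 reads), Cox7c (2624), the subunit c gene Atp5g3 (2285), Atp5a1, the alpha subunit (1848), Cox4i1 (1675), Cox8a (1646), Atp5h, subunit d of the peripheral stalk (1586), Atp5g2 (1505), Atp5j2, subunit f (1458), and Cox7a2 (1456). At the other end stood Sdha, the flavoprotein of complex II (244 reads in all and 13 in its thinnest library), Sdhc, a membrane anchor of complex II (334), Uqcrc2, a core subunit of complex III (376), and Sdhd (418).

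The 4 members under 30 reads were the tissue and germline isoforms of complex IV, Cox7a1 (14 reads), Cox6b2 (10), Cox4i2 (2) and Cox7b2 (1). They had 27 reads together, and their tails were not compared. The ubiquitous counterparts Cox7a2, Cox6b1, Cox4i1 and Cox7b had 1456, 1103, 1675 and 1158 reads.

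Tail lengths were in one broad range with differences between complexes. The median over pooled reads was 103.6 nt for complex IV, 95.7 nt for complexes III and V, 92.9 nt for complex II and 90.3 nt for Cycs. Tails under 30 nt made up 1.92% of complex IV reads and 2.09% of complex V reads, but 3.72% of complex II, 3.48% of complex III and 3.96% of Cycs reads. Tails of 30 to 90 nt made up 37.0% of complex IV reads and 42.2% to 45.5% elsewhere. Within complex V, the F1 head genes (96.6 nt) and the Fo and stalk genes (95.4 nt) lay close together.

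The longest tails belonged to Cox6c (111.9 nt, SD 7.11 over the 8 library medians), Cox4i1 (110.7 nt, SD 4.91) and Cox6b1 (109.2 nt, SD 5.07), all nuclear subunits that surround the core of complex IV. Cox6c lies at chr15:35925886-35938246 on the minus strand (GENCODE vM21, GRCm38), Cox4i1 at chr8:120668222-120674207 on the plus strand and Cox6b1 at chr7:30616861-30626151 on the minus strand. The shortest belonged to Cyc1, the cytochrome c1 subunit of complex III (83.1 nt, SD 9.59, chr15:76343523-76346260, plus strand), Atp5o, the OSCP subunit that joins stalk and head of ATP synthase (84.9 nt, SD 4.44, chr16:91925214-91931687, minus strand), and the subunit c gene Atp5g1 (85.8 nt, SD 4.49, chr11:96068852-96075670, minus strand). Cyc1 also had the most tails under 30 nt, 8.17% of its 832 reads, against 0.417% for Cox6c and 0.418% for Cox4i1. With the members ordered by the mean of their library medians, each of the 41 gaps between neighbours was smaller than the larger of the pair's SDs, so no gene stood apart from the next. Across the 42 members the median tail had a Spearman correlation of 0.257 with the number of reads and of -0.369 with the median position at which reads ended on the most-read transcript. These are descriptions across genes measured in the same libraries, not tests.

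**Figure D1:**
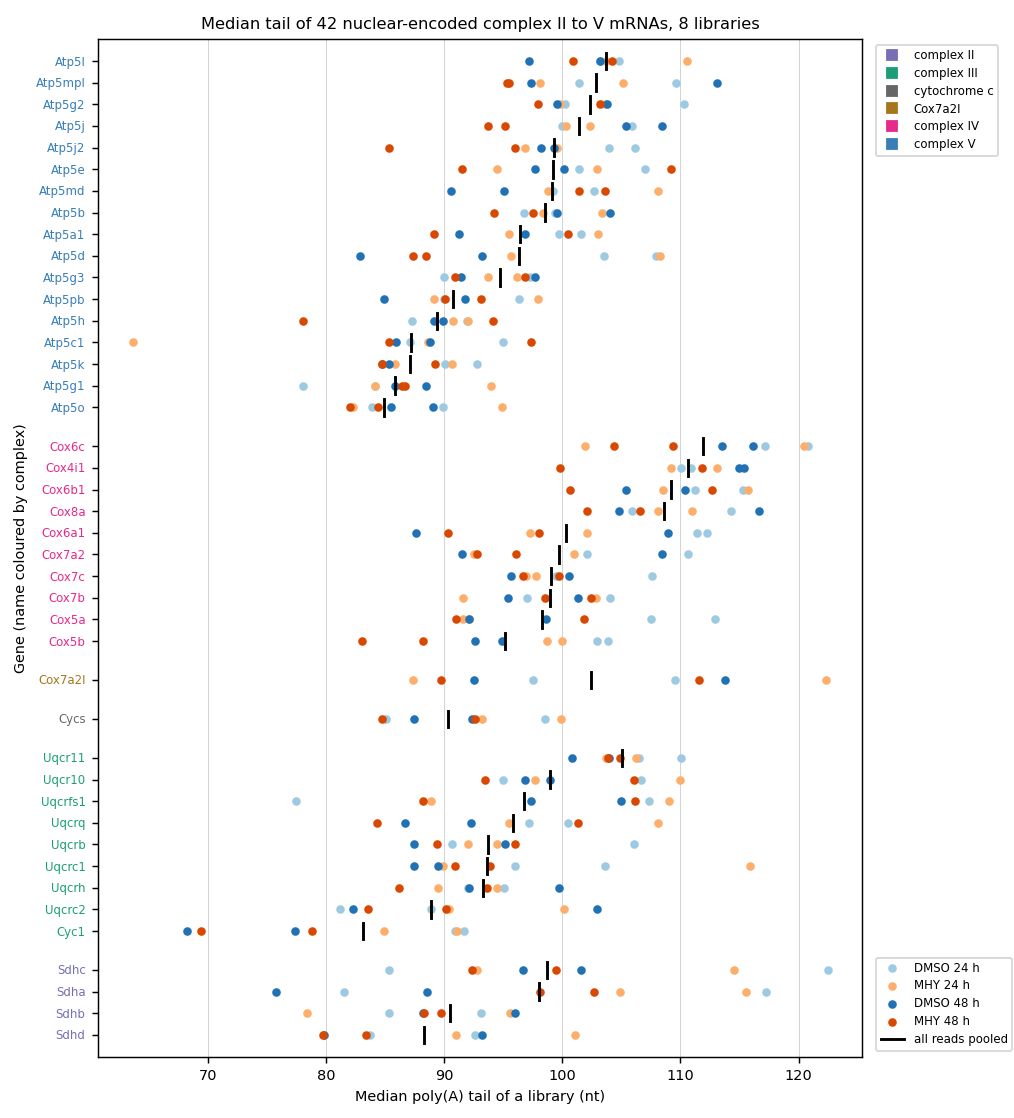
Median poly(A) tail of each member in each library. Each row is 1 of 42 genes, grouped and coloured by complex and ordered by its pooled median (black bar); points are single libraries coloured by group, and the horizontal axis is the library's median tail in nt. Cox6c (111.9 nt), Cox4i1 (110.7 nt) and Cox6b1 (109.2 nt) sit farthest right, Cyc1 (83.1 nt) farthest left, and libraries of single genes scatter more widely than neighbouring genes differ.

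Subunit c, which forms the rotating ring of ATP synthase, is made from the genes Atp5g1, Atp5g2 and Atp5g3, whose mature proteins are the same. Atp5g2 had the longest tails of the 3 in every library, and Atp5g1 had the shortest in 7 of 8 libraries. Atp5g1 had library medians of 84.1 and 78.0 nt in DMSO 24 h, 84.1 and 93.9 nt in MHY 24 h, 88.5 and 85.8 nt in DMSO 48 h and 86.5 and 86.7 nt in MHY 48 h. Atp5g3 stood at 89.95 and 97.2, 96.2 and 93.7, 91.4 and 97.7, and 90.9 and 96.8 nt in the same groups. Atp5g2 stood at 100.3 and 110.3, 103.6 and 99.8, 99.6 and 103.7, and 98.0 and 103.2 nt. The exception was MHY 24 h library 23, where Atp5g1 (93.9 nt) lay just above Atp5g3 (93.7 nt). Reads with mapping quality of at least 10 made up 68.6% of Atp5g1, 22.1% of Atp5g2 and 36.3% of Atp5g3 reads, so the split of reads among these similar genes is uncertain.

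Read assignment was firmer for most of the other members. Mapping quality of at least 10 was reached by 80.5% of member reads and 71.7% of all kept reads. It was reached by under 50% of reads in 5 members, among them Atp5a1 and Uqcrc1, a core subunit of complex III (both 0%), and Atp5d, the delta subunit of the F1 head (2.53%). At least 80% of reads fell on 1 annotated transcript in 37 of the 42 members.

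Reads did not always end where the annotation does. In 28 members at least 90% of reads on the most-read transcript ended in its last 100 nt, but in 12 members fewer than 50% did. In 3 examples, chosen after their values were seen, reads ended at an internal position. Atp5g1 reads on a 4715-nt transcript ended at a median of nt 561, with 96.6% of 647 reads within 25 nt of it and 0 in the last 100 nt. Uqcrq, a small subunit of complex III, has a 1521-nt annotated transcript, and 97.6% of 1010 reads ended within 25 nt of nt 486. Cycs reads on a 3123-nt transcript ended at a median of nt 597, with 52.7% of 985 reads within 25 nt.

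Pooled over members, tails were slightly shorter with MHY at 24 h. The median was 100.1 and 101.4 nt in the DMSO libraries and 98.7 and 99.5 nt in the MHY libraries at 24 h, and 96.1 and 99.6 nt in DMSO and 92.4 and 98.3 nt in MHY at 48 h. The groups did not overlap at 24 h, where MHY minus DMSO was -1.63 nt (99.1 ± 0.513 against 100.7 ± 0.930 nt, SD, n = 2) and -0.973 nt without DMSO 24 h library 23. They overlapped at 48 h, where the difference was -2.52 nt (95.4 ± 4.17 against 97.9 ± 2.47 nt, SD, n = 2), and without MHY 48 h library 24 the difference was 0.430 nt in the other direction. The two-sided exact permutation test gave p = 0.333 at 24 h, the smallest that 2 against 2 libraries allow, and p = 0.667 at 48 h. Other mRNAs differed by -0.700 nt at 24 h and -2.64 nt at 48 h in the same libraries.

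Short tails were fewer with MHY at 24 h and more frequent with MHY at 48 h. Tails under 30 nt made up 1.88% and 2.08% of member reads in DMSO 24 h (95% Wilson intervals 1.53 to 2.29% and 1.77 to 2.45%) and 1.72% and 1.79% in MHY 24 h (1.41 to 2.09% and 1.45 to 2.22%). They made up 2.27% and 2.14% in DMSO 48 h (1.90 to 2.69% and 1.84 to 2.49%) and 3.60% and 2.61% in MHY 48 h (3.22 to 4.03% and 2.22 to 3.06%). MHY libraries were thus below DMSO libraries at 24 h, by 0.225 percentage points within overlapping intervals, and above them at 48 h, by 0.901 percentage points. The 24 h difference was -0.121 points without DMSO 24 h library 23. The 48 h difference was 0.402 points without MHY 48 h library 24 and 1.40 points without MHY 48 h library 25. Within the runs, the 48 h difference was 1.30 points in the first and 0.604 points in the second, where libraries overlapped, and the 24 h difference was -0.353, -0.278 and 0.0702 points. The 48 h effect minus the 24 h effect was 1.13 points (exact permutation within strata, p = 0.0556, the smallest this design allows), or 0.626 points without MHY 48 h library 24. Other mRNAs had the same pattern, at 2.38%, 2.77%, 2.26% and 2.197% at 24 h and 2.91%, 2.61%, 4.53% and 3.43% at 48 h in the same order of libraries.

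**Figure D2:**
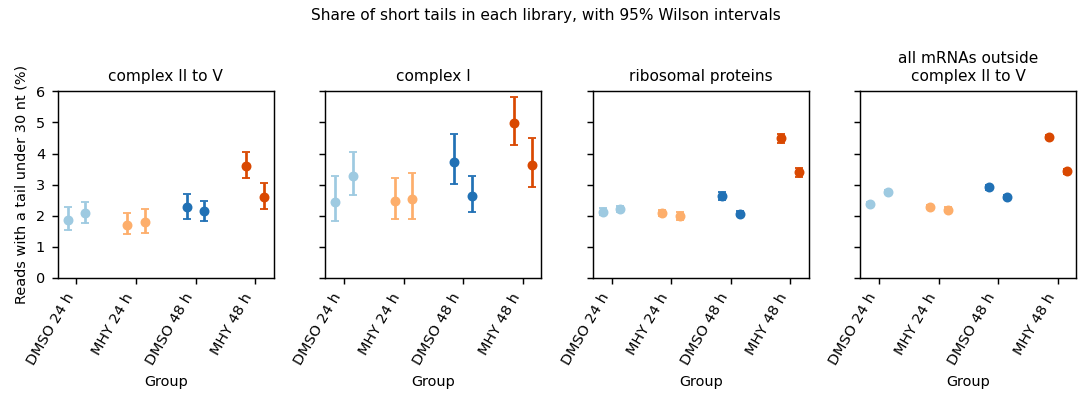
Share of reads with a tail under 30 nt in each library, in percent, for the members (complex II to V), complex I, ribosomal proteins and all mRNAs that are no members. Points are libraries in the 4 groups, and bars are 95% Wilson intervals, which cover counting error only. In each panel the MHY 48 h libraries hold the highest value, 3.60% for members and 4.53% for other mRNAs.

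Members differed from the other mRNAs of the same libraries by small amounts. Their mean tail was lower in 8 of 8 libraries (by 2.02 nt on average), and so was their share of tails under 30 nt (a mean difference of -0.624 percentage points). Their median tail was lower in 7 of 8 libraries. The deficit in short tails was -0.592 and -0.476 points in DMSO and MHY at 24 h and -0.553 and -0.875 points at 48 h. Against the nuclear-encoded mRNAs called complex I here, taken only by their Nduf gene names, the members' median tail was longer in 8 of 8 libraries. The mean difference was 1.95 nt. Against cytosolic ribosomal protein mRNAs it was longer in 8 of 8 libraries, by 7.04 nt on average. That gap was 5.57 ± 0.255 nt in DMSO and 6.41 ± 0.187 nt in MHY at 24 h, and 6.62 ± 0.919 and 9.58 ± 0.389 nt at 48 h (SD, n = 2). It was thus wider with MHY in non-overlapping libraries at both times, by 0.843 and 2.96 nt. With MHY, the median of ribosomal protein mRNAs differed by -2.47 nt at 24 h and -5.48 nt at 48 h. The members' median differed by -1.63 and -2.52 nt, and both sets overlapped at 48 h. The gap between members and complex I overlapped between treatments at both times (0.618 and 0.980 nt).

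The clearest difference among the members was between complex IV and the rest, a comparison added after the tails of single genes had been seen and therefore given without a test. Complex IV reads had median tails of 107.8 and 109.6 nt in DMSO 24 h and 101.6 and 102.6 nt in MHY 24 h. The other members of those libraries had 96.1 and 97.8 nt in DMSO and 96.8 and 97.3 nt in MHY. At 48 h complex IV stood at 101.9 and 106.7 nt in DMSO and 95.5 and 103.8 nt in MHY, and the other members at 93.5 and 96.4 nt in DMSO and 90.5 and 96.6 nt in MHY. Complex IV tails thus exceeded those of the other members in all 8 libraries, by 11.7 ± 0.0636 nt in DMSO and 5.09 ± 0.290 nt in MHY at 24 h, and by 9.35 ± 1.38 and 6.09 ± 1.598 nt at 48 h (SD, n = 2). The excess was smaller with MHY in non-overlapping libraries at both times, by 6.61 nt at 24 h and 3.26 nt at 48 h.

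The narrowing kept its direction in each run but not its size. At 24 h it was -7.28, -8.89 and -1.06 nt in the 3 runs, with overlapping libraries in the last. At 48 h it was -5.60 nt in the first run, with overlapping libraries, and -1.73 nt in the second. Without MHY 48 h library 24 the 48 h value was -2.13 nt. With equal weight for each gene it was -6.63 and -3.28 nt at the 2 times.

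For the other complexes, the median was set against all remaining members, complex IV included. The differences between treatments depended to varying degrees on single runs, libraries or settings. Complex III stood at -3.76 ± 2.62 nt in DMSO and -0.565 ± 1.65 nt in MHY at 24 h, and at -4.62 ± 0.0354 and -2.72 ± 0.332 nt at 48 h, without overlap at either time. The complex III difference at 24 h, 3.20 nt over all runs, was -0.750, 0.823 and 10.4 nt in the 3 runs, overlapped at mapping quality of at least 10 and was 1.34 nt without DMSO 24 h library 21. At 48 h the complex III difference was 1.90 nt, and 1.665 to 2.135 nt without single libraries. It was 3.05 nt in the first run and 1.67 nt in the second, with overlap in the second. It was 3.32 nt at mapping quality of at least 10 and 3.30 nt at barcode confidence of at least 0.9, both without overlap. It overlapped with equal weight for each gene (1.58 nt) and with mean tails (0.533 nt). Complex V stood at -6.91 ± 0.972 nt in DMSO and -3.77 ± 2.25 nt in MHY at 24 h without overlap, and at -4.65 ± 2.52 and -3.21 ± 0.173 nt at 48 h with overlap (SD, n = 2). With equal weight for each gene the complex V difference between treatments at 24 h was -0.250 nt, and in run 3 it was -2.92 nt. Without DMSO 48 h library 25 the one at 48 h was -0.338 nt. With mean tails the complex V difference was 1.25 nt with overlap at 24 h and 2.75 nt without overlap at 48 h. At barcode confidence of at least 0.9 the one at 48 h was 1.19 nt, also without overlap. Complex II, the smallest set, overlapped between treatments at both times over all reads. It separated with mean tails at 24 h (4.21 nt) and, at 48 h, with mapping quality of at least 10 (5.84 nt) or barcode confidence of at least 0.9 (7.11 nt). Its difference of 4.22 nt at 24 h became -1.75 nt without DMSO 24 h library 21 and -6.04 nt in run 3.

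**Figure D3:**
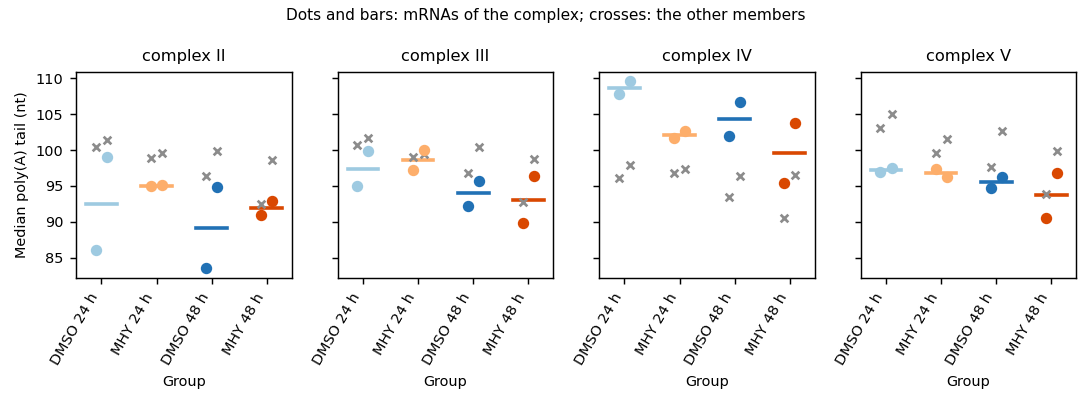
Median poly(A) tail in nt of each complex in each library (points, with bars at the group means) and of all other members in the same library (crosses). Complex IV lies above the other members in all 8 libraries, by 11.7 nt on average in DMSO and 5.09 nt in MHY at 24 h.

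Gene by gene, 10 of 10 complex IV subunits had a lower mean tail with MHY at 24 h when libraries were weighted equally, as did 51.8% of all 1941 genes. In 7 of them (Cox4i1, Cox5a, Cox5b, Cox6a1, Cox6c, Cox7a2 and Cox7c) the MHY pair lay wholly below the DMSO pair, and in 0 wholly above, where 17.9% of all 1941 genes were lower in this sense and 14.7% higher. The separation was marginal for Cox4i1, whose nearest libraries were 114.83 nt in MHY and 114.84 nt in DMSO, and for Cox7c, at 106.5 and 106.8 nt. At 48 h 8 of 10 had a lower mean, as did 61.9% of all genes, 3 without overlap (Cox5b, Cox6c and Cox7c), against a background of 25.9% lower and 10.8% higher. Over all 42 members, 11 were lower (26.2%) and 3 higher (7.14%) without overlap at 24 h, and 7 of these 11 were the complex IV genes named. At 48 h 9 were lower (21.4%) and 3 higher (7.14%).

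In the gene fits 0 of the 42 members passed an adjusted p of 0.05 for mean tail at either time (limma, Benjamini-Hochberg over 1941 genes). At 24 h 0% of all genes were called, and at 48 h 0.721%, all lower. Unadjusted p was under 0.05 in 1 member at 24 h (2.38%) and 3 members at 48 h (7.14%), all lower, against 4.12% and 9.33% of all genes. The median effect at 24 h was -1.71 nt for members and -0.409 nt for all genes, and at 48 h -0.436 and -3.20 nt.

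The smallest p at 24 h belonged to Cox6a1, a subunit of complex IV. Its mean tail was 117.5 and 116.3 nt in DMSO 24 h and 103.8 and 108.7 nt in MHY 24 h, a fitted difference of -10.9 ± 4.72 nt (SE, limma adjusted p = 0.999). At 48 h it was 100.0 and 109.9 nt in DMSO and 95.3 and 102.4 nt in MHY, with overlapping groups. Cox6c had 123.9 and 122.2 nt in DMSO 24 h and 118.9 and 109.0 nt in MHY 24 h, a fitted difference of -8.76 ± 5.08 nt. Cycs had a difference of opposite sign, with 102.0 and 88.9 nt in DMSO 24 h and 99.7 and 109.3 nt in MHY 24 h, overlapping, and a difference of 9.05 ± 5.76 nt.

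At 48 h the leading members were Cox5b, Cox7a2 and Atp5j. Cox5b, a subunit on the matrix side of complex IV, had mean tails of 103.9 and 104.3 nt in DMSO 48 h and 94.2 and 96.9 nt in MHY 48 h (fitted difference -8.94 ± 3.81 nt, SE, limma adjusted p = 0.414). Cox7a2 had 103.1 and 115.7 nt in DMSO and 97.2 and 104.0 nt in MHY, overlapping (-10.2 ± 4.41 nt). Atp5j, coupling factor 6 of the ATP synthase stalk, had 118.1 and 113.9 nt in DMSO and 105.1 and 106.7 nt in MHY, without overlap (-9.65 ± 4.62 nt). In the interaction of time and treatment the members with the smallest p were Atp5c1, Atp5g1 and Atp5md, none with an adjusted p under 0.982.

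**Figure D4:**
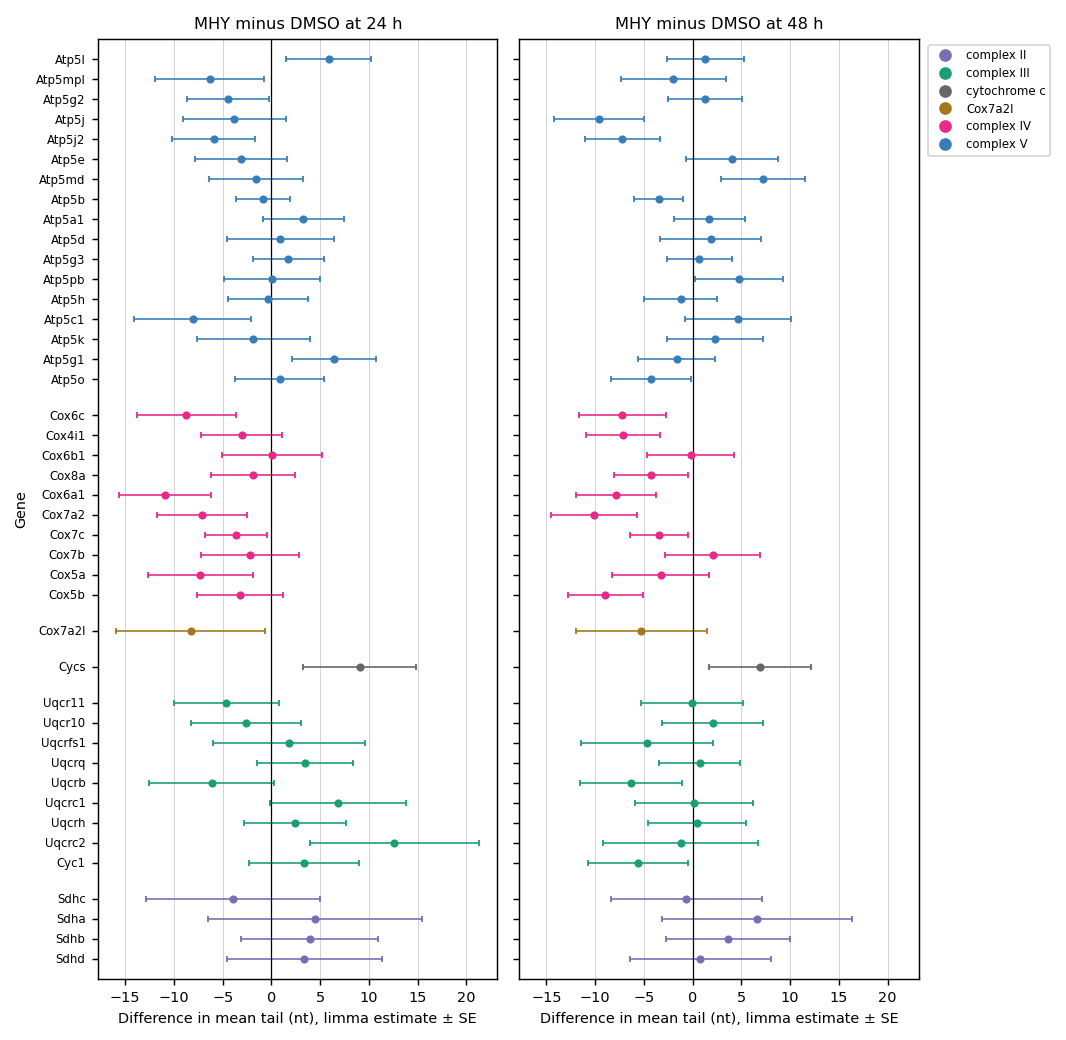
Fitted difference in mean tail between MHY and DMSO for 42 members, in nt, at 24 h (left) and 48 h (right). Points are limma estimates, bars are ± 1 SE, and colours give the complex. At 24 h complex IV genes lie left of 0, except Cox6b1 close to 0, with Cox6a1 at -10.9 nt, and 0 members passed the adjusted threshold at either time.

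For single genes, short tails were too rare to measure well. The share of tails under 30 nt was called in 0 of 42 members in each contrast, against a background of 0.361% of 1941 genes for MHY against DMSO at 48 h (7 genes, all higher) and 0% at 24 h. Unadjusted p was under 0.05 in 5 members at 24 h (11.9%, 3 higher, 2 lower), against 5.67% of all genes. At 48 h it was under 0.05 in 8 members (19%, 7 higher, 1 lower), against 10.6% of all genes. On the log2 odds scale the median effect at 48 h was 0.63 for members and 0.41 for all genes. The smallest adjusted p was 0.125, for Atp5d and for Cox4i1 at 48 h. Atp5d had 0 and 0 short-tailed reads in DMSO 48 h and 3 and 1 in MHY 48 h, and Cox4i1 had the same counts, so both rest on 4 reads. Uqcrfs1, the Rieske iron-sulphur protein of complex III, had fewer with MHY, 4 and 7 short-tailed reads in DMSO 48 h (7.02% and 6.42%) and 2 and 1 in MHY 48 h (2.06% and 1.27%), with an adjusted p of 0.208 in the limma fit. With a bound of 20 nt in place of 30 nt, the 48 h log2 odds changed sign for Uqcrfs1 (0.31) and for Atp5d (-0.21). Uqcrfs1 was also lower at 24 h, with 3 and 6 such reads in DMSO and 1 and 1 in MHY. Atp5j2 led at 24 h with 0 and 0 in DMSO and 3 and 3 in MHY, followed by Atp5md, a small subunit of ATP synthase, with 0 and 0 against 2 and 1.

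The share of tails of 30 to 90 nt was called in 0 of 42 members (background 0.206% of genes called at 48 h and 0% at 24 h). At 24 h the leading members were again complex IV subunits. Cox5a had 29.3% and 35.4% of its reads in this class in DMSO 24 h and 43.9% and 46.1% in MHY 24 h. Cox6a1 had 28.7% and 29.1% in DMSO 24 h and 42.9% and 38.1% in MHY 24 h. Cox7a2 had 39.4% and 32.9% in DMSO 24 h and 45.7% and 40.3% in MHY 24 h. The limma adjusted p was 0.981 for each. At 48 h Cox6c had 18.97% and 24.3% in DMSO and 34.2% and 29.3% in MHY (adjusted p = 0.403), and Atp5j2 had 39.1% and 37.9% in DMSO and 49.4% and 43.5% in MHY (adjusted p = 0.705). Atp5md had 47.7% and 47.0% in DMSO 48 h and 38.6% and 36.7% in MHY 48 h (adjusted p = 0.710).

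The members' share of the mRNA pool differed little between libraries. They took 2.64% and 2.55% of kept reads in DMSO 24 h, 2.56% and 2.61% in MHY 24 h, 2.63% and 2.52% in DMSO 48 h and 2.61% in both MHY 48 h libraries. MHY minus DMSO was -0.0130 percentage points at 24 h and 0.0374 points at 48 h, with overlapping libraries both times. The coefficient of variation of a member's level over the 8 libraries had a median of 9.71% and ranged from 4.93% to 23.8%. Ribosomal protein mRNAs took 30.8% ± 0.257 of kept reads in DMSO 24 h, 30.5% ± 1.29 in MHY 24 h, 30.5% ± 0.973 in DMSO 48 h and 28.5% ± 1.21 in MHY 48 h (SD, n = 2).

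In read count, 0 of 42 members were called for MHY against DMSO, where 0.0487% of 4108 genes were called at 24 h and 1.61% at 48 h, 1.22% lower (limma voom). Unadjusted p was under 0.05 in 1 member at each time (2.38%), lower in both cases, against 4.48% and 12.2% of all genes. At 24 h it was Atp5a1, at 112.5 and 99.0 reads per 100000 in DMSO and 84.2 and 89.6 in MHY, a log2 fold change of -0.30 ± 0.15 (SE, adjusted p = 0.959). Cox5b stood at 75.7 and 70.9 in DMSO and 64.7 and 58.8 in MHY at 24 h, a log2 fold change of -0.27 ± 0.16. Cox7b stood at 51.2 and 66.5 in DMSO and 70.2 and 75.4 in MHY, a log2 fold change of 0.27 ± 0.16. At 48 h it was Cox6b1, at 67.6 and 63.3 in DMSO and 53.6 and 55.6 in MHY, a log2 fold change of -0.37 ± 0.16 (SE, limma adjusted p = 0.292). Cycs stood at 59.5 and 52.7 in DMSO 48 h and 50.05 and 47.1 in MHY 48 h, a log2 fold change of -0.31 ± 0.17. Sdha stood at 10.95 and 10.3 in DMSO 48 h and 16.4 and 15.7 in MHY 48 h, a log2 fold change of 0.48 ± 0.27 on 23, 32, 50 and 33 reads. None of these 6 passed the adjusted test.

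**Figure D5:**
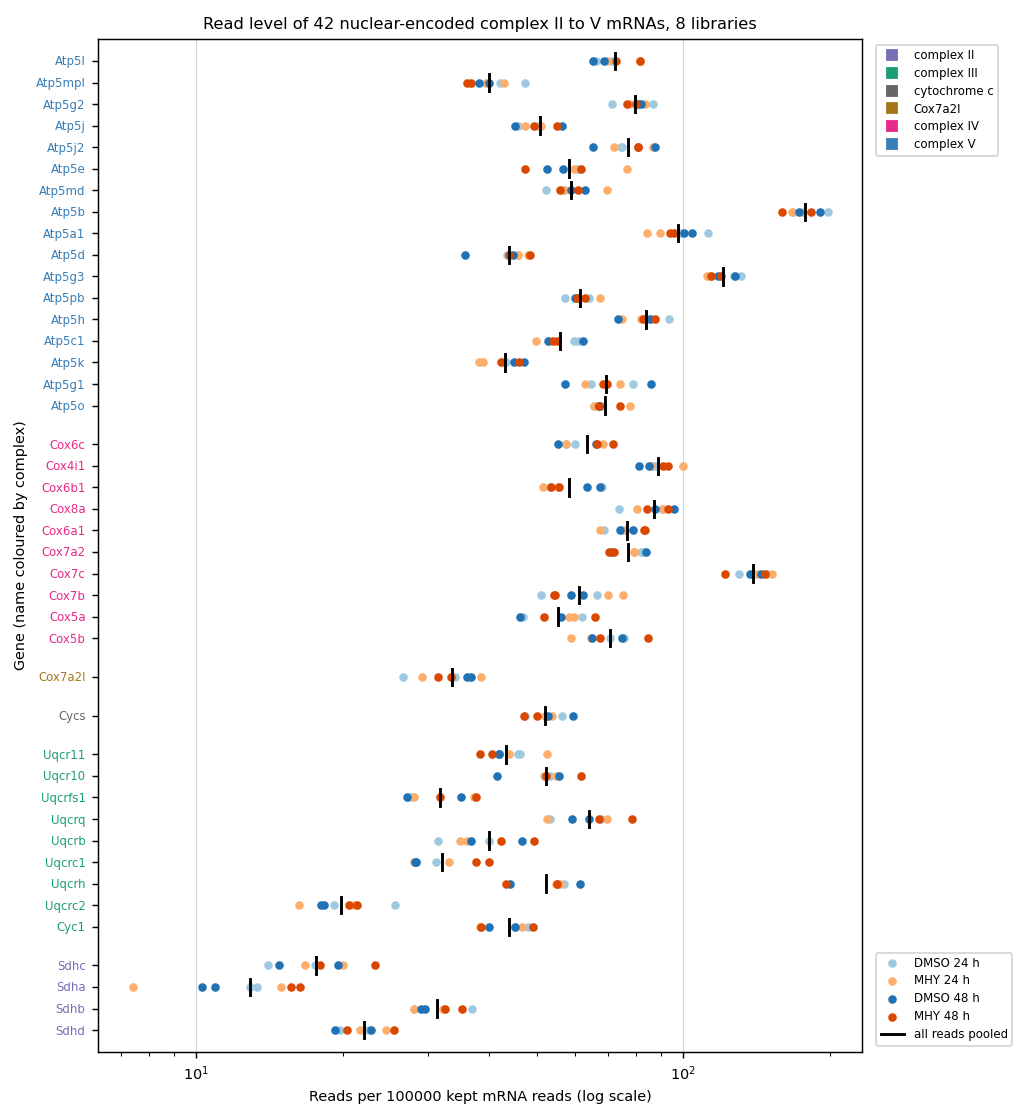
Read level of each member in each library. Each row is 1 of 42 genes grouped by complex, points are libraries coloured by group, black bars are all reads pooled, and the horizontal axis is reads per 100000 kept mRNA reads on a log scale. Levels run from 12.9 for Sdha to 178 for Atp5b, and libraries of the same gene mostly lie close together.

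Between 24 h and 48 h, a contrast that cannot be told apart from the runs, the members' median tail differed by -2.86 nt in DMSO and -3.75 nt in MHY. Without DMSO 48 h library 24 or 25 the DMSO value was -1.11 or -4.61 nt, and without MHY 48 h library 24 or 25 the MHY value was -0.803 or -6.70 nt. Other mRNAs differed by -3.58 and -5.53 nt. No member was called for any measure (0 of 42 in each fit). In MHY the share of all genes called was 1.14% for read count (0.949% lower and 0.195% higher) and 0.258% for tails under 30 nt. It was 0.155% for tails of 30 to 90 nt and 0% for mean tail in MHY, and 0% for each measure in DMSO. The smallest adjusted p was that of Cox7b in read count, which stood at 70.2 and 75.4 reads per 100000 in MHY 24 h and 54.6 and 54.2 in MHY 48 h, a log2 fold change of -0.52 ± 0.16 (SE, limma adjusted p = 0.0976). For mean tail the leading members were Atp5md and Cox6a1 in DMSO (-12.4 ± 4.54 and -10.7 ± 4.34 nt, SE) and Cyc1 and Cox5b in MHY (-13.4 ± 5.51 and -9.29 ± 4.25 nt), with limma adjusted p of 0.830, 0.830, 0.341 and 0.448. For tails under 30 nt in MHY, Cox6c, Cox7a2l and Sdhd, the cytochrome b anchor subunit of complex II, had the smallest adjusted p (0.140, 0.233 and 0.215). Cox6c had 0 such reads in both MHY 24 h libraries and 3 and 1 in MHY 48 h. In the interaction of time and treatment the leading members were Cox4i1, Atp5j2 and Atp5l, subunit g of ATP synthase, for tails under 30 nt (adjusted p of 0.328, 0.450 and 0.535 in the limma fit). In read count they were Cox7b, Sdha and Atp5md (adjusted p of 0.601, 0.780 and 0.867), with 0.341% of all genes called.

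The mitochondrially encoded partners of complexes III to V, which are polyadenylated inside the organelle, had shorter tails than the nuclear members in every library. Their median tail was 63.2 and 64.0 nt in DMSO 24 h, 64.4 and 63.9 nt in MHY 24 h, 65.1 and 62.4 nt in DMSO 48 h and 66.8 and 64.5 nt in MHY 48 h, over 53590 reads of mt-Cytb, mt-Co1, mt-Co2, mt-Co3, mt-Atp6 and mt-Atp8. The complex IV core mRNAs stood at 63.4 ± 0.803 nt in DMSO and 63.8 ± 0.545 nt in MHY at 24 h, and at 63.1 ± 1.80 and 65.1 ± 1.68 nt at 48 h (SD, n = 2), with overlapping libraries at both times. The complex III partner mt-Cytb stood at 55.6 and 57.0 nt in DMSO and 57.4 in both MHY libraries at 24 h, and at 60.2 and 59.5 nt in DMSO and 61.0 and 61.1 nt in MHY at 48 h, so its tails were longer with MHY without overlap at both times. Its share of tails under 30 nt at 48 h was 2.196% ± 0.151 in DMSO and 3.86% ± 0.504 in MHY (SD, n = 2). The complex V partners stood at 66.8 ± 0.707 nt in DMSO and 67.7 ± 0.163 nt in MHY at 24 h, without overlap, and at 67.4 ± 2.46 and 69.5 ± 1.77 nt at 48 h, with overlap (SD, n = 2). All partners together had 2948 ± 608, 3015 ± 234, 2921 ± 35.5 and 2592 ± 297 reads per 100000 kept mRNA reads in DMSO 24 h, MHY 24 h, DMSO 48 h and MHY 48 h.

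Genes that serve the same complexes were examined by list. Assembly factors of complex IV, such as those that insert haem and copper, had reads for 23 of 24 genes. Their summed level was 107.7 to 109.3 reads per 100000 in DMSO 24 h, 117.1 to 118.6 in MHY 24 h, 112.5 to 119.0 in DMSO 48 h and 121.2 to 142.0 in MHY 48 h, and 0 of the 16 that could be tested were called in read count. Assembly factors of complex III summed to 32.1 to 36.8 and 37.1 to 41.7 at 24 h and to 28.6 to 29.9 and 38.3 to 38.5 at 48 h, in DMSO and MHY, with 0 of 2 called. Those of complex II overlapped at 24 h (14.9 to 15.5 in DMSO, 13.6 to 16.6 in MHY) but not at 48 h (13.2 to 14.3 and 16.7 to 17.6). Those of complex V also overlapped at 24 h (4.26 to 12.6 and 10.3 to 11.3) but not at 48 h (10.6 to 11.4 and 12.8 to 15.7). In each of these lists 0 of 2 were called in read count. Of 13 citric acid cycle genes, Suclg2, a subunit of succinyl-CoA ligase, was called lower in read count with MHY at 48 h and the other 12 were not called. Of all 4108 genes, 1.61% were called in read count for MHY against DMSO at 48 h, 1.22% lower, and 0.0487% at 24 h.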

How the data were processed

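Members and gene lists were chosen with earlier results of these data known. Per the study's methods, the authors base called the direct RNA reads with Guppy, aligned them with minimap2 2.20 to GENCODE vM17 transcripts (mm10), assigned barcodes with Deeplexicon and estimated tails with Nanopolish. The deposited table holds 1 line per alignment, with tail length in nt, read rate, alignment positions, mapping quality as a score and barcode confidence as a fraction, all unnormalized, and no count column. Of 2439710 alignments, 83.1% had the tail tag PASS. Kept were PASS reads of class mRNA without pseudogenes, names ending in -ps and digits, or mitochondrially encoded genes, 1 line per read and transcript.

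Reads were counted per gene and library. Mean tails and the log2 odds of tail classes (0.5 read added to each side), for genes with at least 10 reads in every library, were fitted with limma 3.58.1 in R 4.3.3, weighted by reads. Counts were fitted with limma voom and median-of-ratios size factors, over all 8 libraries, with Benjamini-Hochberg adjustment and a threshold of 0.05. The gene fits, but not the other steps, were tested on simulated data with changes placed at 24 h. Pooled values were compared by two-sided exact permutation tests, which cannot reach the threshold with 2 libraries per group. Wilson intervals cover counting error only. Named were the 10 most-read members, the 3 smallest p of each contrast and measure, the 3 longest and shortest tails, the subunit c genes and the complex IV tissue isoforms.

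Libraries could be mapped to a group but not to a numbered replicate of the labels. Libraries of the same number and time did not pair by design, and their deviations correlated with r of 0.0184 and 0.138 (log2 count, 24 h and 48 h) and 0.0175 and 0.0459 (mean tail) over 1941 genes. Alternatives covered tail class bounds, read filters, mapping quality, barcode confidence, single runs and leaving out each library.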

Additional observations from a re-analysis of the deposited data

Results flagged for a closer look

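The share of member tails under 30 nt responded to MHY differently at the 2 time points, being lower with MHY by 0.225 percentage points at 24 h and higher by 0.901 percentage points at 48 h. The difference between these effects was 1.13 percentage points (exact permutation within strata, p = 0.0556, the smallest this design allows). It was 0.626 points without MHY 48 h library 24 and 1.62 points without MHY 48 h library 25. Other mRNAs of the same libraries differed by -0.341 and 1.22 percentage points.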

How the results depend on the processing

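With 2 libraries per group, small effects on single members were not measurable, and short tails of single genes rest on few reads. No member was called in any of 20 fits. The count of called members became 1 without a filter on low counts, from Cox6b2 in read count at 48 h (log2 fold change -2.85, limma adjusted p = 0.0235, on 10 reads in all). It ranged from 0 to 1 on leaving out a library, from Cox6a1 in the share of 30 to 90 nt between times in DMSO without DMSO 48 h library 25 (1.40 on the log2 odds scale, adjusted p = 0.0331 in limma) and Atp5e in read count between times in MHY without MHY 48 h library 25 (log2 fold change -0.64, adjusted p = 0.0379). With the library number as a replicate block, 0 members were called and no call changed.

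The members' share of kept reads, MHY minus DMSO at 24 h, changed sign to 0.0276 percentage points at mapping quality of at least 10, 0.0246 at barcode confidence of at least 0.9, 0.00682 without Atp5b, Cox7c and Atp5g3 and 0.0531 in run 3. Its difference between times in DMSO became 0.00893 at that barcode confidence. The 24 h difference in tails under 30 nt became 0.0702 points in run 3. On leaving out single libraries the share of kept reads ranged from -0.0574 to 0.0314 (24 h), -0.0153 to 0.0900 (48 h) and -0.0753 to 0.0301 (times in DMSO), the share of 30 to 90 nt from -1.22 to 3.03 (48 h) and -0.261 to 3.99 (times in MHY), and the median tail at 48 h from -5.47 to 0.430 nt.

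The 24 h narrowing of complex IV against the other members (an added comparison) was -7.28, -8.89 and -1.06 nt by run, -4.77 nt with mean tails, -6.91 nt at mapping quality of at least 10 and -7.99 nt at barcode confidence of at least 0.9, and ranged from -6.82 to -6.41 nt without single libraries. At 48 h it was -5.60 nt in the first run and ranged from -4.39 to -2.13 nt. With a bound of 20 nt in place of 30 nt, the log2 odds changed sign for Atp5j2 (-0.15 between times in DMSO, 0.31 in the interaction), Atp5d (-0.21 for MHY at 48 h, 0.0058 between times in DMSO), Uqcrfs1 (0.31 for MHY at 48 h) and Cox7a2l (-0.29 between times in MHY). Atp5d between times in DMSO was 0.20 on its most-read transcript alone. The cause was not tested.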
